A study of Mus musculus with 9 samples.

Results

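The guanylate-binding protein (Gbp) genes were followed in the livers of 9 mice by mRNA sequencing. The 10 genes were Gbp2, Gbp2b, Gbp3, Gbp4, Gbp5, Gbp6, Gbp7, Gbp8, Gbp9, and Gbp10, taken by name from the 24341 gene names of the deposited table, and all 10 were found in it. Livers came from 3 mice given anti-CD40 (mice 2, 5, and 9, called treated mice below), the agonist antibody FGK45, and from 6 control mice given PBS (mice 3, 4, 7, 8, 11, and 12), collected 48 hours after treatment. All mice were wild-type C57BL/6 by their labels (the study's methods name C57BL/6J mice), and the study's methods give sex-matched mice of 8 to 12 weeks as the usual choice, without the age of these mice. The methods also state that anti-CD40 mice without a fall of blood B cells were excluded.

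Guanylate-binding proteins are large GTPases of the dynamin superfamily and are among the proteins that cells make most strongly in response to IFN-γ. They assemble on the membranes of vacuoles that hold microbes and on bacteria in the cytosol, where they help to break these membranes open and to bring bacterial lipopolysaccharide to the protease caspase-11. Mouse Gbp genes lie in a pair of clusters, on chromosomes 3 and 5, and many of them are close copies of one another.

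After anti-CD40, 9 of the 10 Gbp genes were higher in the liver than in control mice and 1, Gbp2b, was lower, each with an adjusted p under 0.05 from limma. Over all 13807 genes tested, 23.5% were called higher and 21.7% lower. In 8 of the 9 that rose, every anti-CD40 mouse was above every control mouse, as in 22.7% of all genes tested. In Gbp2b every anti-CD40 mouse was below every control mouse, as in 19.6% of all genes tested. The median log2 fold change of the 10 genes was 2.11, beside 0.0056 for all genes tested. The 5 genes of chromosome 3 had a median of 2.19 and the 5 of chromosome 5 a median of 2.03. All 10 genes had a mean FPKM (fragments scaled to transcript length and to the mapped reads of the library) of at least 0.177 in each group, above the minimum of 0.1 over all mice that was set for testing, so none entered the test through 1 group alone.

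**Figure D1:**
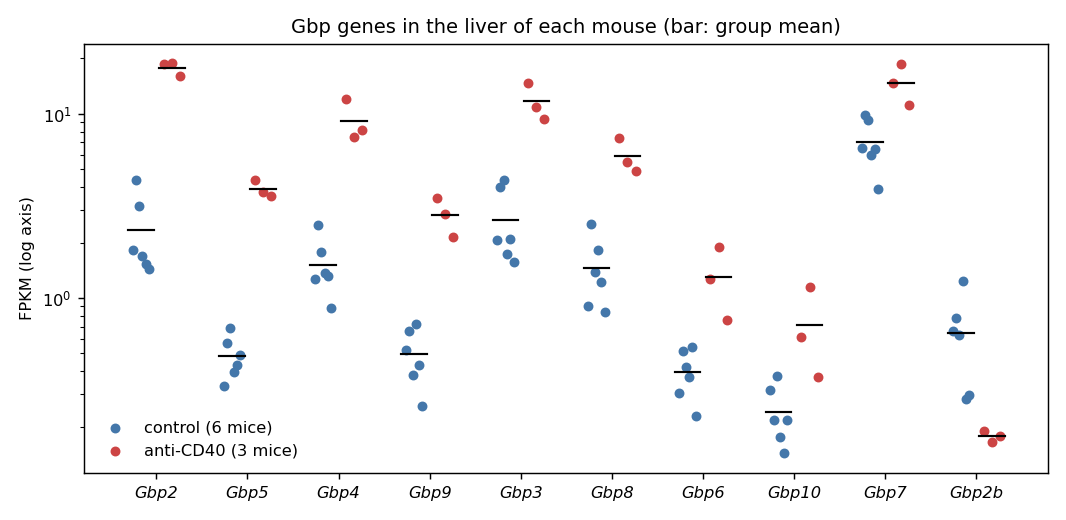
FPKM of each Gbp gene in each mouse on a log axis, with control mice in blue (n = 6), anti-CD40 mice in red (n = 3), and a bar at each group mean, in the order of the log2 fold change. The groups are separate in all genes but Gbp10, where the lowest anti-CD40 mouse (0.372) lies under the highest control mouse (0.377), and Gbp2b is the gene in which the anti-CD40 mice lie below the control mice.

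Every value below is on 1 of 2 scales. A level is the deposited FPKM, which divides by transcript length although these libraries read only the 3′ end, so levels were compared between mice and not between genes. A log2 fold change is a difference of log2(FPKM + 0.1), anti-CD40 minus control, which understates the change of low genes. FPKM of low genes move in steps of what 1 read was worth, and for 8 of the 10 genes these steps gave whole reads in every mouse to within 0.05 reads. They gave none for Gbp3 and Gbp7. Reads given here are the smallest whole numbers that match. Set against their geometric mean, the depth was 0.991 to 1.13 in treated mice and 0.870 to 1.06 in controls. In bulk tissue, more cells that carry a transcript and more transcript per cell cannot be told apart.

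Gbp2, Gbp5, and Gbp2b encode the members that carry a lipid-attachment signal at their C-terminus, by which they bind membranes. Gbp2 protein gathers on the vacuoles of intracellular parasites and on bacteria. Its gene lies on chromosome 3 of mm10 from 142620663 to 142638008, a position that it shares in the table with the microRNA gene Mir6381, which was at the floor of 0.01 in all mice. The FPKM of Gbp2 was 18.6, 18.8, and 16.2 in treated mice 2, 5, and 9. Control mice ran from 1.43 to 4.39, with a median of 1.75. The anti-CD40 mice were close together, whereas the control mice spread 3.07-fold, with mouse 4 highest. Behind these values were 928, 881, and 706 reads in the treated mice, and 58 to 204 reads per control mouse. The mean rose from 2.33 ± 1.19 (SD, n = 6) to 17.8 ± 1.47 (SD, n = 3) for a log2 fold change of 3.00 ± 0.33 (SE, limma adjusted p = 4.37e-05), which was the largest of the 10.

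Gbp5 takes part in assembly of the NLRP3 inflammasome, a complex that activates caspase-1. Its gene (chromosome 3, from 142496934 to 142522344) had an FPKM of 4.36, 3.76, and 3.58 in treated mice 2, 5, and 9. In the control mice it lay between 0.335 and 0.684, with a median of 0.462. The groups were far apart, and Gbp5 had the narrowest control range of the 10 genes, 2.05-fold from lowest to highest. It was covered by 196 to 272 reads per treated mouse and by 18 to 40 per control mouse. The mean rose from 0.484 ± 0.127 (SD, n = 6) to 3.90 ± 0.404 (SD, n = 3) for a log2 fold change of 2.80 ± 0.20 (SE, limma adjusted p = 3.10e-06).

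Gbp2b, which encodes the protein called GBP1 in mice, went the other way. It lies on chromosome 3 from 142594847 to 142619176, between Gbp3 and Gbp2. Its FPKM was 0.190, 0.165, and 0.177 in treated mice 2, 5, and 9, whereas it was 0.661, 0.778, 0.627, 1.23, 0.283, and 0.297 in control mice 3, 4, 7, 8, 11, and 12. The anti-CD40 mice were nearly level, and the control mice ranged 4.35-fold, with mice 11 and 12 the closest to the anti-CD40 mice. Gbp2b had 11, 9, and 9 reads in the treated mice, 29 in all, and 33, 42, 34, 55, 14, and 14 reads in the controls, in the same order, 192 in all. The FPKM ratio of Gbp2 to Gbp2b, read only between mice, was 91.2 to 114 in the treated mice and 1.37 to 5.65 in the controls. The mean fell from 0.646 ± 0.351 (SD, n = 6) to 0.177 ± 0.0123 (SD, n = 3) for a log2 fold change of -1.29 ± 0.37 (SE, 95% interval -2.12 to -0.47, limma adjusted p = 0.0162). The direction was the same under all 18 alternatives that gave a value, but the adjusted p was 0.0529 without anti-CD40 mouse 5 and 0.0551 with no filter on low values. The markers of Kupffer cells and of hepatocytes also fell, where 21.7% of all genes tested were called lower. Of 4 Kupffer cell markers 4 were lower, with a summed FPKM of 18.0 to 24.9 in treated mice and 85.6 to 127 in controls, and of 5 hepatocyte markers 5 were lower (4190 to 5027 against 11980 to 23380). The part of either in the fall of Gbp2b was not tested.

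**Figure D2:**
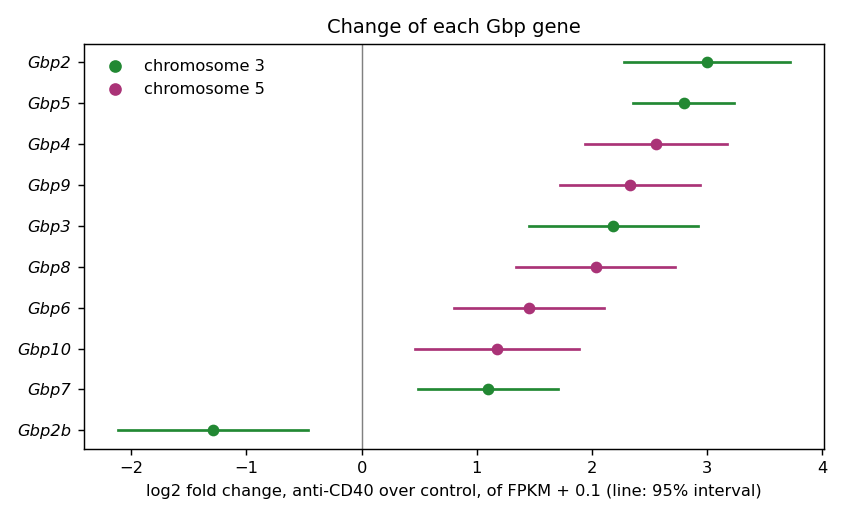
Log2 fold change of log2(FPKM + 0.1), anti-CD40 over control, for each Gbp gene with its 95% interval from limma, with genes of chromosome 3 in green and of chromosome 5 in purple. The intervals of 9 genes lie above 0, from Gbp2 at 3.00 down to Gbp7 at 1.10, and that of Gbp2b lies below 0 at -1.29.

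Gbp3 and Gbp7, the other genes of the chromosome 3 cluster, rose by unequal amounts. Gbp3 (from 142560052 to 142573212) had an FPKM of 14.8, 10.9, and 9.36 in treated mice 2, 5, and 9. The controls had a median of 2.09 and a range of 1.57 to 4.36. The anti-CD40 mice were all above the control mice, of which mice 4 and 7 were the highest. The mean rose from 2.64 ± 1.22 (SD, n = 6) to 11.7 ± 2.80 (SD, n = 3) for a log2 fold change of 2.19 ± 0.33 (SE, limma adjusted p = 0.000386).

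Gbp7, whose protein is linked to the phagocyte NADPH oxidase and to autophagy, had the smallest fold change of the 9 genes that rose, but it was not the smallest under every alternative. Gbp10 was lower with a pseudocount of 1 (0.44), with quantile normalization (0.75 against 1.13 for Gbp7), and without anti-CD40 mouse 5 (0.80 against 0.92), and Gbp6 was lower with a pseudocount of 1 (0.70) and with quantile normalization (1.08). The Gbp7 gene (from 142530336 to 142550151) had an FPKM of 14.7, 18.6, and 11.1 in treated mice 2, 5, and 9. The median of the control mice was 6.46, and their range was 3.93 to 9.90. Anti-CD40 mouse 9 was close above control mouse 4, the highest control mouse. The mean rose from 6.99 ± 2.21 (SD, n = 6) to 14.8 ± 3.74 (SD, n = 3) for a log2 fold change of 1.10 ± 0.27 (SE, limma adjusted p = 0.00790).

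Promoters are shown for the 5 genes of chromosome 3, the Gbp genes that matched by symbol in the promoter set used. All 5 of these genes, the falling Gbp2b included, had a match to the interferon-stimulated response element (ISRE). The sequences are the 250 bases before the annotated start, from RefSeq on GRCm38.p6, the same assembly as mm10. Capitals mark matches to the ISRE core, searched on both strands as GAAA, any 2 bases, and GAAA, and to the gamma-activated site (GAS), a motif of promoters that respond to IFN-γ, searched as TTCNNNGAA, which reads the same on both strands.
Gbp2 (chr3:142620413-142620662, plus strand): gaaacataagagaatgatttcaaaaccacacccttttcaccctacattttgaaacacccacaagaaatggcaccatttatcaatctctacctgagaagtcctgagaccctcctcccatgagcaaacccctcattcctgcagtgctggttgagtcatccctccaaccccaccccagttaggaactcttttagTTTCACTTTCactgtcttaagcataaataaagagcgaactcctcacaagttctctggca
Gbp5 (chr3:142496684-142496933, plus strand): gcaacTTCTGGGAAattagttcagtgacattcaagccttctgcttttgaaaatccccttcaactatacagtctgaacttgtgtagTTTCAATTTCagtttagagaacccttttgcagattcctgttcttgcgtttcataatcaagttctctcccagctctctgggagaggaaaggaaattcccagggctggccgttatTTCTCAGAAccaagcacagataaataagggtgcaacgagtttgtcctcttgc
Gbp2b (chr3:142594597-142594846, plus strand): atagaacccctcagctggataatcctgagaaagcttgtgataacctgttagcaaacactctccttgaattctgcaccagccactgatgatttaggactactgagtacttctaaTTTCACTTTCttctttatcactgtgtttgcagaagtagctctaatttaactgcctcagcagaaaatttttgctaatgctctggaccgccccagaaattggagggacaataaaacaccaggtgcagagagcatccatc
Gbp3 (chr3:142559794-142560043, plus strand): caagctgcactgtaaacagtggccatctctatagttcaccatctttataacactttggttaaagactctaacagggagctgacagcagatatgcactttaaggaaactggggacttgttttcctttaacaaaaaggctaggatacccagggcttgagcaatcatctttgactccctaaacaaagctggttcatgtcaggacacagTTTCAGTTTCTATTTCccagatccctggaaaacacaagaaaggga
Gbp7 (chr3:142530086-142530335, plus strand): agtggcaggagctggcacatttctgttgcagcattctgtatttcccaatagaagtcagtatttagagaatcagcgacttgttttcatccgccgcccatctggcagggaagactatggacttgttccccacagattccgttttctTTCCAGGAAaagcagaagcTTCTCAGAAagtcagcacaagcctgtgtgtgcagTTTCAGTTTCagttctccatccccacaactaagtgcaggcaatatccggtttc
In the whole windows of 300 bases (the last 50 lie after the start) an ISRE match stood in 5 of the 5 genes. Counted per promoter and not per gene, 3.44% of the 32851 promoters of the same length hold one. The match began 59 bases before the start in Gbp2, 165 in Gbp5, 137 in Gbp2b, and 53 in Gbp7. Gbp3 had a pair of overlapping matches, from 45 and 39 bases before the start, while a second annotated start of Gbp3 had none. Gbp2 and Gbp2b had the same 10 letters, TTTCACTTTC. A GAS match was found in Gbp5 and Gbp7, with 2 in each, and in 8.3% of all promoters. In no case did a GAS match overlap an ISRE match. These are matches of letters only, and binding was not measured. Promoters of Gbp4, Gbp6, Gbp8, Gbp9, and Gbp10 were not analysed here.

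**Figure D3:**
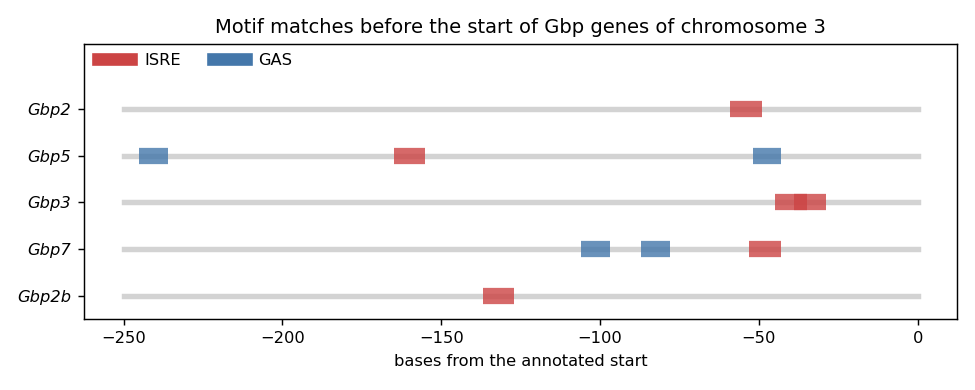
Position of ISRE (red) and GAS (blue) matches within the 250 bases before the annotated start of the 5 Gbp genes of chromosome 3, in bases from the start. Each gene has an ISRE match, Gbp3 has a pair that overlap, and Gbp5 and Gbp7 also have 2 GAS matches each.

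The genes of chromosome 5 all rose. Gbp4 (from 105115767 to 105139586) had an FPKM of 12.0, 7.45, and 8.16 in treated mice 2, 5, and 9. Control mice ran from 0.883 to 2.51, with a median of 1.34. Mouse 2 was highest among the anti-CD40 mice and mouse 4 among the control mice, and the groups were separate. The mean rose from 1.52 ± 0.562 (SD, n = 6) to 9.20 ± 2.44 (SD, n = 3) for a log2 fold change of 2.56 ± 0.28 (SE, limma adjusted p = 4.55e-05).

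Gbp9 (from 105078394 to 105110292) had an FPKM of 3.50, 2.87, and 2.15 in treated mice 2, 5, and 9. In the control mice it lay between 0.259 and 0.718, with a median of 0.475. Behind these values were 143 to 266 reads per treated mouse and 16 to 47 per control mouse. The mean rose from 0.495 ± 0.174 (SD, n = 6) to 2.84 ± 0.676 (SD, n = 3) for a log2 fold change of 2.33 ± 0.27 (SE, limma adjusted p = 7.24e-05). Gbp8 (from 105014153 to 105053561) is its neighbor in the cluster. Its FPKM was 7.36, 5.51, and 4.91 in treated mice 2, 5, and 9. The controls had a median of 1.30 and a range of 0.836 to 2.51. The mean of Gbp8 rose from 1.45 ± 0.632 (SD, n = 6) to 5.93 ± 1.28 (SD, n = 3) for a log2 fold change of 2.03 ± 0.31 (SE, limma adjusted p = 0.000419). In both genes the order of the anti-CD40 mice was the same, with mouse 2 highest and mouse 9 lowest.

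Gbp6 and Gbp10 are near-identical copies at the end that these libraries read. All of the 502 stretches of 50 bases in the last 300 bases of the annotated Gbp10 transcripts (GENCODE M21) also occur in Gbp6. Of the 504 stretches of Gbp6, 253 occur in Gbp10 and 502 in the gene model Gm43302. That gene model also holds 251 of the 502 stretches of Gbp10. Reads of these genes could therefore be assigned to either, and the values of each are uncertain. Gbp6 (from 105270702 to 105293699) had an FPKM of 1.26, 1.90, and 0.763 in treated mice 2, 5, and 9. The median of the control mice was 0.396, and their range was 0.229 to 0.540. Its mean rose from 0.398 ± 0.121 (SD, n = 6) to 1.31 ± 0.570 (SD, n = 3) for a log2 fold change of 1.46 ± 0.29 (SE, limma adjusted p = 0.00239). Gbp10 (from 105215699 to 105239533) had an FPKM of 0.610, 1.15, and 0.372 in the same order of treated mice. Control mice ran from 0.143 to 0.377, with a median of 0.218. It had 45, 80, and 24 reads in the treated mice, and 9 to 26 reads per control mouse. Both genes were highest in mouse 5 and lowest in mouse 9, as were Gbp2 and Gbp7 of chromosome 3. Gbp4, Gbp8, and Gbp9 were highest in mouse 2. The mean of Gbp10 rose from 0.241 ± 0.0881 (SD, n = 6) to 0.712 ± 0.401 (SD, n = 3) for a log2 fold change of 1.17 ± 0.32 (SE, limma adjusted p = 0.0128). Its groups overlapped, and Gbp10 was no longer called without anti-CD40 mouse 5 (0.80, limma adjusted p = 0.0692) and with quantile normalization (0.75, adjusted p = 0.0678). Summed into 1 value, an alternative chosen after the data were seen, Gbp6 and Gbp10 were 1.87, 3.05, and 1.14 in the treated mice and at most 0.799 in the controls, a log2 fold change of 1.44 (limma adjusted p = 0.00176).

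For the other genes the annotated ends were more distinct. No stretch of 50 bases at the end of Gbp2, Gbp2b, or Gbp7 occurs in a transcript of any other gene. The share that does was 4.51% for Gbp3 and Gbp9, 3.17% for Gbp8, 0.669% for Gbp5, and 19.8% for Gbp4. The shared stretches of Gbp3, 46 of 1020, all occur in transcripts of Gbp7, so reads of those stretches could be assigned to Gbp7. Gbp11, which is annotated as a polymorphic pseudogene and is not among the 10 genes, follows Gbp6 on chromosome 5 (from 105323026 to 105346476). Its FPKM was 6.58, 4.73, and 4.77 in treated mice 2, 5, and 9. In the control mice it lay between 0.187 and 1.32, with a median of 0.462. Its log2 fold change was 3.28 ± 0.45 (SE, limma adjusted p = 0.000215), and 27.3% of its stretches occur in other genes, Gbp8 and Gbp4 among them.

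A 2-sided exact permutation test, which takes all 84 ways to draw 3 of the 9 mice, gave p = 0.0238 for 9 of the 10 genes, the smallest value that it can give, and p = 0.0476 for Gbp10. The order of the log2 fold changes was Gbp2, Gbp5, Gbp4, Gbp9, Gbp3, Gbp8, Gbp6, Gbp10, Gbp7, and Gbp2b. When each anti-CD40 mouse was set against the control mean of a gene, the range of each gene overlapped that of the next gene in the order, except between Gbp7 (0.72 to 1.46) and Gbp2b (-1.36 to -1.23). Farther apart in the order the ranges separate, as those of Gbp2 (2.86 to 3.08) and Gbp5 (2.68 to 2.96) lie above that of Gbp6 (0.83 to 2.04). Differences between genes were not tested.

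**Figure D4:**
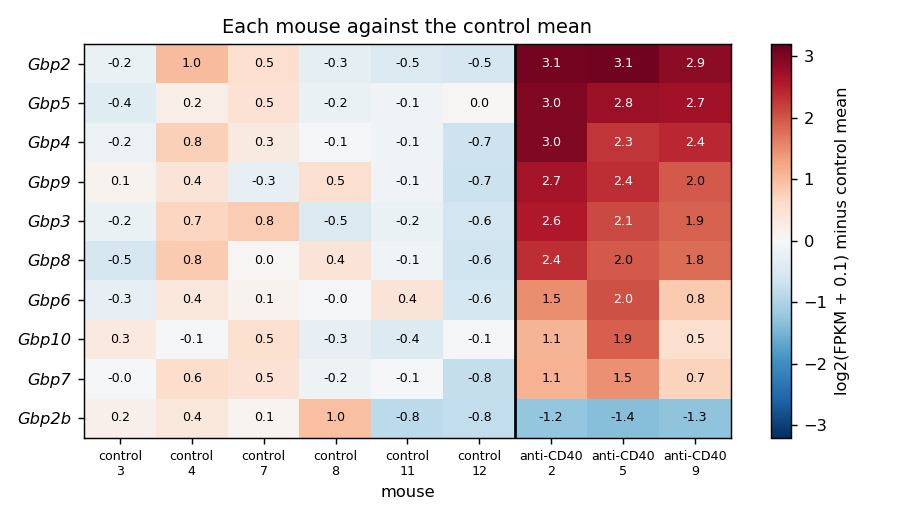
Log2(FPKM + 0.1) of each Gbp gene in each mouse minus the mean of the 6 control mice, with the control mice left of the line and the anti-CD40 mice right of it. Red is above and blue below the control mean, and control mouse 12 and anti-CD40 mouse 9 are the paler or bluer columns of their groups in most genes.

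The mice differed within each group in the same direction for many of the genes. Anti-CD40 mouse 9 was the lowest of its group in 8 of the 10 genes and mouse 2 the highest in 6. Among the control mice, mouse 12 was the lowest in 7 genes, mouse 4 the highest in 4, and mouse 7 the highest in 3. Over the 10 genes the median difference from the control mean, on the log2 scale, was 2.46 in treated mouse 2, 2.08 in mouse 5, and 1.84 in mouse 9, and it ran from -0.62 in control mouse 12 to 0.49 in control mouse 4. The depth followed the same order as this median in the anti-CD40 mice, at 1.13, 1.06, and 0.991. Among the controls it did so only in part. The deepest controls, mice 7 and 4 (1.06 and 1.05), had the highest medians (0.37 and 0.49). The lowest depth, 0.870, was that of mouse 8, whose median was -0.11. Mouse 12, with the lowest median, had a depth of 0.920. The part of depth in these differences was not tested. The 5 genes outside the family whose values over the 9 mice were closest to this median were Trim30a, Thbs1, Mcm4, Far1, and Rab8b, with a root mean square difference of 0.153 to 0.175 on the log2 scale. Only 1 of the 5 was kept with a pseudocount of 1, and 1 with the mean in place of the median.

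Genes within 500 kb of the clusters were called about as often as genes in general. Within 250 kb, 4 of the 5 genes tested were called. Of 10 table rows within 500 kb of the clusters that are not Gbp genes, 8 were tested, and 3 were higher and 1 lower, beside 23.5% higher and 21.7% lower over all genes tested. Beyond the ends of the chromosome 3 cluster, Pdlim5, a gene of cytoskeletal and Z-disc proteins, had a log2 fold change of -0.03 (limma adjusted p = 0.857), and Ccbl2, which encodes a kynurenine aminotransferase, fell by 1.03 on the log2 scale (limma adjusted p = 0.00184). Beside the chromosome 5 cluster, the transporter gene Abcg3 had a log2 fold change of 0.88 (limma adjusted p = 0.0144), a call that was lost without anti-CD40 mouse 2 (0.80, adjusted p = 0.0645). Lrrc8c, which encodes a subunit of the volume-regulated anion channel, had one of 0.77 (limma adjusted p = 0.102), and it was called without anti-CD40 mouse 5 (1.09, adjusted p = 0.0470) and with the Saa genes, the serum amyloid A genes of the acute-phase response, left out and the mice rescaled to the same summed FPKM (1.04, adjusted p = 0.0337). Without anti-CD40 mouse 2, 2 of these genes were called in place of 4.

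**Figure D5:**
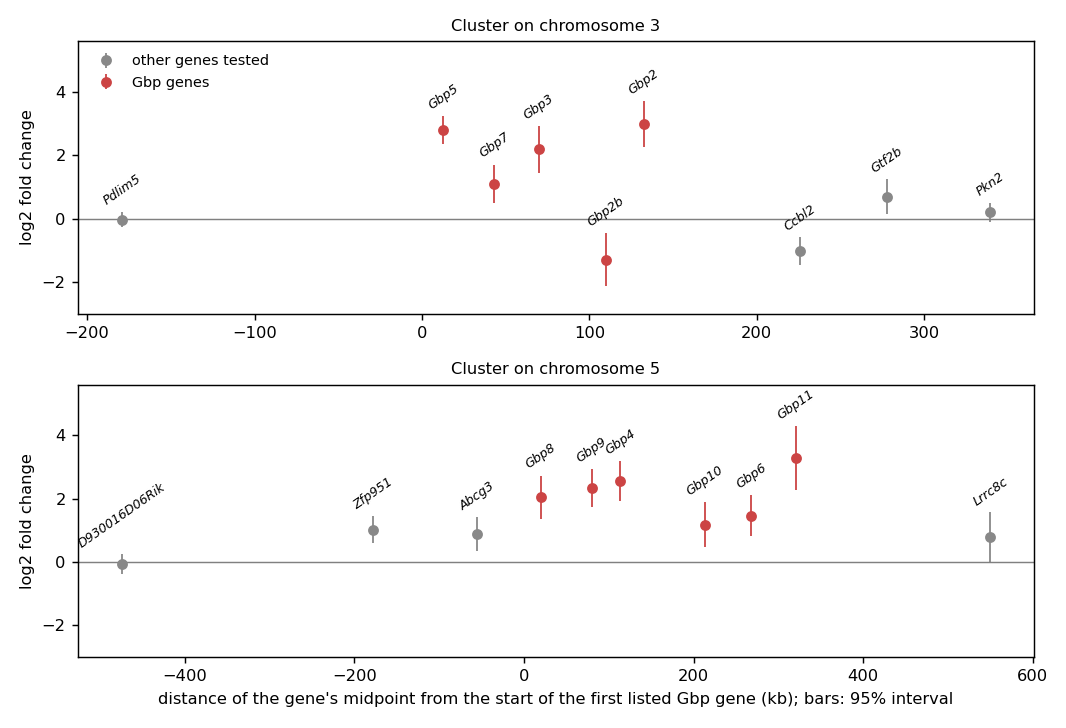
Log2 fold change with its 95% interval for the Gbp genes (red) and the other genes tested within 500 kb (gray) on chromosomes 3 and 5, against the distance of the gene's midpoint from the start of the first listed Gbp gene in kb. On chromosome 3 Gbp2b (-1.29) lies between Gbp3 (2.19) and Gbp2 (3.00), and the genes outside the clusters lie between -1.03 and 1.01.

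Genes of the pathway that controls Gbp genes were read from the same fit. Over all genes tested, that fit called 23.5% higher and 21.7% lower. Of the 15 listed genes of interferon signaling, 13 were tested, and 10 were higher and 0 lower, with a median log2 fold change of 0.84 beside 0.0056 for all genes tested. At a fold change of at least 2 as well, 5 were higher. The receptor gene Ifngr1 had a log2 fold change of 0.84 (limma adjusted p = 0.00156) and the kinase gene Jak2 one of 0.85 (limma adjusted p = 0.00152). Irf8, a factor of myeloid cells that binds ISRE motifs with partners, rose by 2.23 and the feedback inhibitor Socs1 by 2.69 on the log2 scale (limma adjusted p = 5.45e-06 and 0.000169). Irf1, a factor that Gbp genes depend on, had an FPKM of 52.8, 41.9, and 51.1 in the treated mice, and controls ran from 30.6 to 52.3. Its log2 fold change was 0.33 (limma adjusted p = 0.179), but it passed the test with quantile normalization (0.58, adjusted p = 0.0318), with array weights (0.39, adjusted p = 0.0475), and with the Saa genes left out (0.69, adjusted p = 0.0107). Ifng itself was below the minimum level for the test, at 3 reads over the anti-CD40 mice and 9 over the control mice.

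The IRG proteins are smaller GTPases that act with guanylate-binding proteins on vacuoles. For the counts that follow, 23.5% of all genes tested were called higher and 21.7% lower. Of 6 listed IRG genes of chromosome 11, 4 were tested, and 3 were higher. Their median log2 fold change was 1.42, with 1.48 for Irgm1 and 1.36 for Igtp (limma adjusted p = 0.000128 and 2.57e-05). Irgb10 was not matched by name and was not analysed here. Of 8 genes of the inflammasome and pyroptosis, the death pathway in which guanylate-binding proteins act, 7 were higher and 1 lower, with a median log2 fold change of 1.73. The number called higher was 6 without any single treated mouse and without control mouse 7, 8, 11, or 12. It was also 6 with no filter on low values and at an adjusted p under 0.01. Casp4, which encodes caspase-11, rose from a control median of 0.642 to 6.82, 5.58, and 4.20 in anti-CD40 mice 2, 5, and 9, a log2 fold change of 2.94 (limma adjusted p = 2.88e-06). The log2 fold change was 1.96 for the DNA sensor gene Aim2, 1.33 for Casp1, and 0.94 for Gsdmd, which encodes the pore-forming gasdermin D (limma adjusted p = 7.72e-06, 0.00817, and 0.00407). The gene that was lower was Il18, a cytokine that caspase-1 activates, named after its values were seen, with a mean FPKM of 59.7 ± 12.3 (SD, n = 3) against 124 ± 38.9 (SD, n = 6, limma adjusted p = 0.0109). That call was lost with quantile normalization, with the Saa genes left out, and without anti-CD40 mouse 5.

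The ATG8 conjugation genes, whose products direct guanylate-binding proteins to vacuoles, did not share the rise. All 10 were tested, and 0 were higher and 5 lower, with a median log2 fold change of -0.55. Here and for the large GTPases below, the share over all genes tested was 23.5% higher and 21.7% lower. Atg5 had an FPKM of 16.3, 19.5, and 16.3 in treated mice 2, 5, and 9, and controls ran from 30.8 to 41.1. It shares its position in the table with Mir1929 and had a log2 fold change of -1.02 (limma adjusted p = 8.58e-05). Gabarapl2 had one of 0.54 (limma adjusted p = 0.159), and without control mouse 4 it was 0.75 (adjusted p = 0.00546). With quantile normalization or the Saa genes left out, 2 of the 10 were called higher. Among 6 other large GTPases, 5 were tested and 2 were higher, with a median log2 fold change of 0.56. Mx1, an interferon-induced dynamin relative, had a log2 fold change of 2.08 (limma adjusted p = 0.000853), from control values that reach the floor of 0.01. Atl3, an atlastin, which is among the nearest relatives of guanylate-binding proteins outside interferon responses, had one of 0.22 (limma adjusted p = 0.227), or 0.58 (adjusted p = 0.00765) with the Saa genes left out. Gvin1 was at or next to the floor in all mice.

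Markers of the cell types of liver also differed between the groups, and their summed levels are given beside the Gbp genes. Of all genes tested, 23.5% were called higher and 21.7% lower. A sum follows its genes of highest FPKM, which were Gzma for NK cells and S100a8 and S100a9 for neutrophils. For macrophages and monocytes they were Lyz2 and Ly6c2, while Adgre1 was lower and Csf1r was not called. The hepatocyte and Kupffer cell markers are given above beside Gbp2b. Of 3 leukocyte markers 3 were higher, with a summed FPKM of 71.3 to 92.4 in treated mice and 23.0 to 36.3 in controls. So were 3 of 3 neutrophil markers tested (4157 to 5134 against 17.6 to 150) and 4 of 4 B cell markers (24.3 to 34.6 against 1.58 to 6.53). The 4 of 4 NK cell markers tested were higher as well (at least 60.2 against at most 11.4). The listed neutrophil marker Ly6g and T cell marker Trac were not matched by name. Of 6 macrophage and monocyte markers 4 were higher and 1 lower, or 2 lower without control mouse 3 or with quantile normalization (266 to 381 against 43.7 to 77.5). Of 4 T cell markers tested 3 were higher (2.28 to 3.85 against 0.483 to 1.62), and of 5 endothelial markers 2 were higher and 1 lower (51.4 to 62.0 against 35.1 to 48.1). No listed marker was at the floor in every mouse. These are transcript levels and not counts of cells, and their part in the Gbp values was not tested.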

How the data were processed

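RNA from the livers of 9 mice was made into QuantSeq 3′ libraries and sequenced on a NextSeq 500. STAR (build mm10), Cufflinks, and CuffDiff were run by the authors, who deposited FPKM values that go no lower than 0.01 and marked failed estimates. The annotation and the filter of the table are not given in the sources used here. Groups came from the sample titles. The 15 genes with a failed estimate were left out, and no scaling was added. The 13807 genes whose FPKM averaged 0.1 or more were tested as log2(FPKM + 0.1) with limma 3.58.1 in R 4.3.3 (lmFit, eBayes with a trend, 2-sided, Benjamini-Hochberg over all genes tested, threshold 0.05), treatment being the only factor. Results were called from that fit and from an exact permutation test of single genes. Alternatives were other pseudocounts, filters, thresholds, and scalings, quantile normalization, the Saa genes left out, other limma settings, and each mouse left out. Promoters are from RefSeq, where the 5 Gbp genes of chromosome 3 matched by symbol. Nothing says that mice of 1 group came from separate litters or cages, so p-values measure the spread between these mice. Total reads are not given, so absolute depth is unknown. Positions are from the table, counted from 1. The code was tested on simulated data. Python 3.11.15 with numpy 2.4.6, pandas 2.3.3, and matplotlib 3.10.9 did the remaining steps. The Gbp genes, gene lists, and markers were chosen with earlier results of these data known. Named genes were the 10 Gbp genes, Gbp11, the pathway genes that the rule lists, the nearest tested neighbor on each side of a cluster, and the 5 genes closest in pattern, and 1 listed gene is not reported here. The labels name no batch.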

Additional observations from a re-analysis of the deposited data

How the results depend on the processing

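In the comparison of anti-CD40 with control mice, the direction of each of the 10 Gbp genes was the same under all alternatives that gave a value. The number called higher stayed at 9, apart from 8 with quantile normalization, at an adjusted p under 0.01, and without anti-CD40 mouse 5, and 7 at a mean FPKM of at least 1, where Gbp6, Gbp10, and Gbp2b are not tested. The number called lower, Gbp2b, went from 1 to 0 with no filter on low values, at a mean FPKM of at least 1, and at an adjusted p under 0.01, and was 0 to 1 when single mice were dropped (0 without anti-CD40 mouse 5). The cause was not tested. The median log2 fold change of the 10 genes moved from 2.11 to 1.44 with a pseudocount of 1 and to 2.47 with the Saa genes left out, where the median of all genes moved to 0.35. With the Saa genes left out, the split over all genes went from 3240 called higher and 2990 lower to 5635 and 1647. A fold change of at least 2 left 3142 of 6230 genes called and 3 of 6 listed pathway genes called lower, and 5 of 10 interferon signaling genes called higher. Of the other large GTPases, 1 was called lower without anti-CD40 mouse 9. Neighboring genes called were 7 with the Saa genes left out in place of 4, and 2 to 4 when single mice were dropped. The log2 fold change of Pdlim5 turned positive with quantile normalization (0.024), with the Saa genes left out (0.34), and without anti-CD40 mouse 5 (0.0034) or 9 (0.0085), and over single mice dropped it ran from -0.0953 to 0.0085. Of the 5 genes closest in pattern, 1 was kept under either alternative. Counts of macrophage, T cell, and endothelial markers also moved. Macrophage and monocyte markers called lower went from 1 to 2 without control mouse 3 and with quantile normalization. T cell markers called higher fell from 3 to 1 without anti-CD40 mouse 2 or 9 or without control mouse 3, 8, 11, or 12. They also fell to 1 with quantile normalization and with no filter on low values, and none was tested at a mean FPKM of at least 1. Endothelial markers called higher went from 2 to 1 without anti-CD40 mouse 5 or 9, and those called lower from 1 to between 0 and 2. No paired analysis was possible because the groups compared share no mouse number. Gbp2b has the fewest reads of the 8 Gbp genes whose reads were recovered, 29 over the treated mice, and Gbp10 the next fewest there, 149.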
